A study of Mus musculus with 4 samples.

Results

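All 4 arrays of the study were compared by labelled cell state: the 2 arrays labelled activated against the 2 arrays labelled naive, with both genotypes in 1 comparison. The arrays labelled activated were 1 from mice deficient in the microRNA miR-7 and 1 from wild type mice, and carried RNA described as that of CD4+ splenocytes with high CD62L kept in vitro for 48 hours with antibodies to CD3 and CD28 plus interleukin 2. The naive arrays were 1 from miR-7 deficient mice and 1 from wild type mice, and carried RNA described as that of naive cells of the same kind, taken on immunomagnetic beads. All mice were FVB/N. The labels do not say how miR-7 was removed or in which cells, nor the age of the mice, and they call each sample representative of 3 biological replicates, with 1 array per group here. The growth and treatment fields of the labels describe a bacterial culture and say nothing of these cells.

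The identity of the arrays labelled activated is in doubt. Both carried abundant transcripts of neurons and glia, and most defining T cell transcripts lay at or below the floor on them, as set out below. The arrays are therefore called by their labels throughout, and what their RNA came from, the activation named in the labels and the array itself cannot be told apart. The single array of each genotype and state is not a replicate of another, so the spread between arrays of a state is the spread between genotypes. The p-values and SEs combine a gene's own such spread with a variance shared across all genes, which has more weight. They measure no spread between replicates.

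CD4+ T cells that have not met antigen circulate through lymph nodes, and keep high levels of homing receptors and of transcription factors that hold them at rest. Engagement of the T cell receptor with CD28 is known to induce interleukin 2 and its receptor chain Il2ra, the transcription factors Myc and Irf4, glycolysis and, within days, cell division, while homing receptors are lost. Genes such as Mbp, Snap25 and Gfap are by contrast textbook markers of oligodendrocytes, neurons and astrocytes.

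The microRNA that sets the genotypes apart exists as mature miR-7a and miR-7b, shown because their shared seed (bases 2 to 8, in capitals) defines the family. The sequences are those of RefSeq (GRCm38.p6). miR-7a-5p is encoded at chr13:58392841-58392863 (minus strand) and chr7:78888295-78888317 (plus strand), and miR-7b-5p at chr17:56243017-56243040 (plus strand).
mmu-miR-7a-5p: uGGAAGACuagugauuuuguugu
mmu-miR-7b-5p: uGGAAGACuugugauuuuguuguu
No row of the value table was named for any of these loci, so no genotype label could be checked on its target.

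Promoters of 6 called genes are shown next, each running from 250 bases before the gene's start to 50 bases after it, in the gene's own direction (RefSeq, GRCm38.p6). Sst, Chgb and Syn1, called higher on the arrays labelled activated, encode somatostatin, a granin of dense-core vesicles and a synaptic vesicle phosphoprotein. Their capitals mark TGACGTCA, the palindromic cyclic AMP response element (CRE), which in Sst begins at position -48 from the start.
Sst promoter, chr16:23890795-23891094, minus strand: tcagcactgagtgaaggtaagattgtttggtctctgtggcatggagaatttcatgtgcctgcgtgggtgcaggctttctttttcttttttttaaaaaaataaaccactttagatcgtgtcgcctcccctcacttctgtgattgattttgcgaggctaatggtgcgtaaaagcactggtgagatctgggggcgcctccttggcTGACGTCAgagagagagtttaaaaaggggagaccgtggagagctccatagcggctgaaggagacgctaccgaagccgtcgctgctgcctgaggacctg
Chgb promoter, chr2:132781392-132781691, plus strand: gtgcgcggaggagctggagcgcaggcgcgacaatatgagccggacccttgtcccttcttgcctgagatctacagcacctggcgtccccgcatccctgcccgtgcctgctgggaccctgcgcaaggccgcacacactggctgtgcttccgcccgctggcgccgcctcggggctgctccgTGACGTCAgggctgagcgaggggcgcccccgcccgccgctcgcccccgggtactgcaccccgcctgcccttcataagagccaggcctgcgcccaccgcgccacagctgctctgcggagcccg
Syn1 promoter, chrX:20920869-20921168, minus strand: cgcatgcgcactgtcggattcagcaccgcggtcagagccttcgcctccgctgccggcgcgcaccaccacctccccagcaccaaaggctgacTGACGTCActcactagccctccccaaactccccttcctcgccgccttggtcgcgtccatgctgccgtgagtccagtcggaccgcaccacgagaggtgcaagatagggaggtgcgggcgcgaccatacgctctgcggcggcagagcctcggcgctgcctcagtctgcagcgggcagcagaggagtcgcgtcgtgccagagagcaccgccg
Cd3e, Lat and Lck, called lower, encode a CD3 chain of the antigen receptor, the adaptor of its signals and the kinase that starts them. Their capitals mark ACAGGAAG or its reverse complement CTTCCTGT, a sequence of the kind that ETS factors bind.
Cd3e promoter, chr9:45009562-45009861, minus strand: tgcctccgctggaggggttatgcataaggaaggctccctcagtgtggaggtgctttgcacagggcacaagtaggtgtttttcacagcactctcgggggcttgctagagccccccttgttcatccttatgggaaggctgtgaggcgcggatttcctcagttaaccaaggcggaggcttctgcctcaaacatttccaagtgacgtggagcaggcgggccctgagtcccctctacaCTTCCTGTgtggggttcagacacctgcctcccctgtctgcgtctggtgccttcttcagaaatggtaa
Lat promoter, chr7:126369519-126369818, minus strand: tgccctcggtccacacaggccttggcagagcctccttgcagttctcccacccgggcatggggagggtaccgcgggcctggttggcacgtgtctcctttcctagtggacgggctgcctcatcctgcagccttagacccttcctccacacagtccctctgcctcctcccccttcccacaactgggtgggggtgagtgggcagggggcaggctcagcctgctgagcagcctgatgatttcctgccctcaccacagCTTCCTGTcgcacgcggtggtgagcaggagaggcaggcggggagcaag
Lck promoter, chr4:129573592-129573891, minus strand: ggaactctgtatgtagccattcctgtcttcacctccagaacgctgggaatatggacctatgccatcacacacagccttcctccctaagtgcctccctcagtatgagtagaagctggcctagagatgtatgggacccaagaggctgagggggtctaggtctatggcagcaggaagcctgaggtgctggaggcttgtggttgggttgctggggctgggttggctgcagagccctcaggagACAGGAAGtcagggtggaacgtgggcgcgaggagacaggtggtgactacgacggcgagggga
These 6 were chosen among called list members with a match, so the match in them is no result.

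Over all called genes with a promoter in the table, the motifs were unevenly spread, given as a description without a test. A gene counted where any of its promoters matched. The 850 genes called higher had 1184 promoters, the 182 called lower 255, and the 14275 of the array 17877. The shares were not adjusted for this. TGACGTCA, which reads the same on both strands, was present for 4.82% of 850 genes called higher and 2.75% of 182 called lower, beside 2.87% of 14275 genes of the array and 2.03% of all 27025 genes with a promoter. ACAGGAAG, on either strand, was present for 3.88% of the genes called higher and 12.6% of those called lower, beside 4% of the array's genes and 4.06% of all. GGGCGG, the SP1 box, was present on either strand for 69.1% of the genes called higher and 57.7% of those called lower, beside 55.1% of the array's genes and 38.2% of all. TGTGGTTT, the RUNX site, was found on either strand for 1.06% of the genes called higher and 3.30% of those called lower, beside 1.74% of the array's genes and 2.11% of all. The TGTGGTTT shares of called genes rest on 9 higher and 6 lower genes, and the TGACGTCA share of genes called lower on 5. None of the 4 motifs contains another. Median GC content was 60.7% in promoters of genes called higher, 57.6% in those called lower and 58.0% in those of the array, and its part in these shares was not tested. A match here says that the letters stand in the window, not that a factor binds.

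The 35411 rows of each array stand for 20735 named genes. The median intensity was 200.2 and 201 on the miR-7 deficient and wild type arrays labelled activated and 203 and 204 on the naive arrays. The floor of an array, below which a value was read as a bound, was set at the 95th percentile of 634 sensory receptor rows (olfactory, vomeronasal and taste receptors) and came to 589 and 729 on the arrays labelled activated and at 1000.3 and 994 on the naive arrays. Above it stood 5472 and 4557 genes on the arrays labelled activated and 3020 and 2821 on the naive arrays. Across rows on the log2 scale, both arrays labelled activated correlated at 0.923, both naive arrays at 0.900, and arrays of different state at 0.723 to 0.750, a description over rows that share their arrays. With 1 array per group, their number limits the precision. In these bulk samples, fewer cells of a type and less RNA per cell cannot be told apart.

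On the arrays labelled activated, genes of neurons, oligodendrocytes and astrocytes were called higher in large numbers, and many genes of lymphocytes lower, than on the naive arrays. A gene was called at an adjusted p under 0.05 (limma, Benjamini-Hochberg over 20735 genes), a mean difference of at least 2-fold and intensities above the floor on both arrays of the higher state. By this rule 1109 genes (5.35%) were called higher and 282 (1.36%) lower, 1391 in all (6.71%). Floors on the arrays labelled activated were lower, so a gene needed less intensity to be called higher than to be called lower. Of these calls 79.7% were higher, against 67.5% with no floor. Adjusted p alone passed 2874 genes (13.9%), and 6136 (29.6%) had an unadjusted p under 0.05. Of 586 background receptor genes 1 was called (0.171%), and 20 (3.41%) passed on adjusted p alone. The floor was set from rows of these receptors, and only 28 stood above it on both arrays labelled activated and 24 on both naive arrays. Their share called is therefore no independent measure of error. An exact permutation test over 2 against 2 arrays cannot give a p below 0.333, so these calls rest on the variance that limma shares across genes.

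Most genes called higher were too dim on the naive arrays for an exact fold. Of the genes called higher, 932 were above the floor on the arrays labelled activated alone, 94 on all 4 arrays and 83 on those and 1 naive array. Of the genes called lower, 137 were above the floor on the naive arrays alone, 103 on all 4 and 42 on those and 1 array labelled activated. A fitted difference depends on values under the floor wherever any array of the gene lay below it. Where a gene lay below the floor on both arrays of its dimmer state, the fold is given as "at least", measured against the floor. Among the 932, 759 had such a bound, with a median of at least 1.91-fold, 135 at 4-fold or more and 13 at 16-fold or more. For the others, the mean of the arrays labelled activated did not exceed that of the naive floors. Each of the 137 genes called lower had one, with a median of at least 2.66-fold, 23 at 4-fold or more and 0 at 16-fold or more. Among called genes above the floor on all 4 arrays, the median log2 difference was 1.89 over 94 higher genes and -1.66 over 103 lower genes, and 40 and 25 of them were at least 4-fold apart. The median difference over all genes was -0.18. Without the wild type naive array the counts fell to 717 higher and 155 lower. Without the miR-7 deficient naive array 94 were called lower, against 153 without the miR-7 deficient array labelled activated and 197 without the wild type one. In all 4 of these fits, 623 of the 1109 and 88 of the 282 kept their call.

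The genotypes share no array but were normalized together. All 1391 called genes had the same sign in both, which the call favours, since the spread it is set against includes that between genotypes. Across all genes the difference in miR-7 deficient mice correlated with that in wild type mice at r = 0.675 (70.3% of signs shared), and at 0.838 across the 6283 genes that passed the floor of some array. Among the 586 background receptors r was 0.06, although 65.2% shared a sign. These correlations are over genes on 4 shared arrays, and genes are not replicates. The mean difference had an SD of 1.15 over all genes, and the deviation of each genotype from that mean had an SD of 0.51. With values under the floor set to it, 745 genes were at least 2-fold apart the same way in both genotypes, 492 higher and 253 lower, out of 1955 in either (38.1%), and 0 were 2-fold apart in opposite directions. A further 773 were 2-fold apart in miR-7 deficient mice alone and 437 in wild type mice alone. That a gene passed in 1 genotype only was not tested as a difference. The 0 holds with values set to the floor. With no floor, 189 genes were at least 2-fold apart in opposite directions and 3558 the same way, out of 11068 in either genotype.

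**Figure D1:**
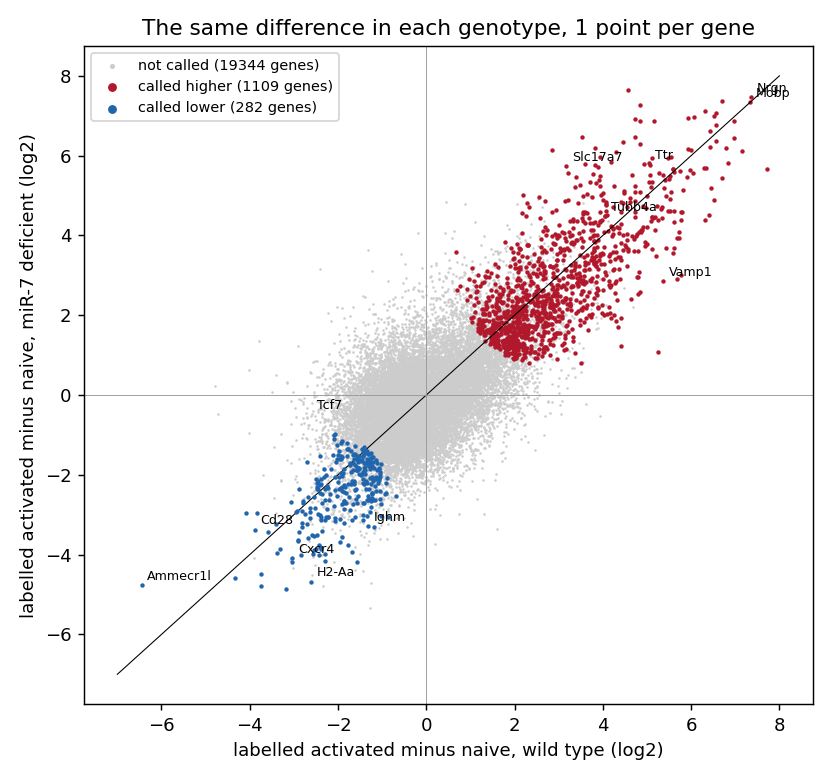
Log2 difference, labelled activated minus naive, in miR-7 deficient mice (vertical) and wild type mice (horizontal), 1 point per gene, with the line of equal values. The 1109 genes called higher and the 282 called lower lie along that line toward the upper right and lower left, and r over all genes is 0.675.

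The machinery of synaptic vesicle release was higher as a group. Of 22 measured genes of synaptic vesicles and SNARE proteins 18 were called higher and 0 lower, with a median of 4.21 beside -0.18 over all genes. Over all genes 5.35% were called higher and 1.36% lower. This list and those below were chosen with earlier results of these data known, so their counts are a description. Snap25, a SNARE protein of the presynaptic membrane, read 10339 and 7834 on the miR-7 deficient and wild type arrays labelled activated, against 127 and 356 on the naive arrays, which puts it at least 9.03-fold higher (adjusted p = 6.1e-05). Sncb, the beta-synuclein of presynaptic terminals, read 18894 and 20457 on the arrays labelled activated, against 149 and 223 on the naive arrays (at least 19.7-fold, adjusted p = 7.1e-06). For both genes every array labelled activated lay above every naive array and both naive arrays were below the floor. Dnm1, the dynamin that pinches off endocytic vesicles, was at least 24.4-fold higher and Syp, a vesicle membrane protein, at least 13.3-fold. Vamp2, the vesicle SNARE, and Nsf, the ATPase that takes SNARE complexes apart, had fitted log2 differences of 4.21 and 4.21. Of the genes named here, Nsf and Syt1 lost their calls when a gene's rows were averaged in place of taking the brightest (the mean of all rows, below). Syt1, the calcium sensor of release, read 1005 and 777 on the arrays labelled activated and 195 and 148 on the naive arrays, and the mean of its arrays labelled activated lies below the naive floors, so no fold bound is given. Cplx1, the complexin, was not called at 0.90 (adjusted p = 0.19). Summed over the list, intensity was 207561 and 172290.0 on the arrays labelled activated and 10355 and 9730.0 on the naive arrays.

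The neuronal cytoskeleton followed. Of 16 measured members 14 were called higher and 0 lower, with a median of 4.33. Tubb4a, a beta-tubulin of neurons and oligodendrocytes, was above the floor everywhere and read 48900.3 and 42090.0 on the miR-7 deficient and wild type arrays labelled activated, against 2183 and 2523 on the naive arrays, a log2 difference of 4.27 ± 0.41 (SE, adjusted p = 6.4e-05). Stmn1, a microtubule regulator that dividing and neural cells express, read 49251 and 35358 on the arrays labelled activated and 4319.7 and 2851 on the naive arrays (3.57 ± 0.44, adjusted p = 0.000278). Its neuronal relative Stmn3 was at least 21.5-fold higher and Stmn2 at least 5.29-fold, a call lost with the mean of all rows. The axonal proteins Mapt, Gap43 and Nefl were at least 7.68-fold, 5.27-fold and 3.73-fold higher, and Ina, an intermediate filament of neurons, at least 4.05-fold. Map2, of dendrites, was below the floor on all 4 arrays at 171 and 235 on the arrays labelled activated and 276 and 349.6 on the naive arrays.

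On the receiving side of the synapse, 12 of 20 measured postsynaptic and calcium signalling genes were called higher and 0 lower (median 3.09). Nrgn, which binds calmodulin in dendritic spines, read 22284 and 15125 on the miR-7 deficient and wild type arrays labelled activated, against 126 and 92.0 on the naive arrays. This was the largest fitted fold of all called genes, and against the floor it comes to at least 18.4-fold (adjusted p = 6.6e-06). Calm2 and Calm3, which encode calmodulin, were called higher with log2 differences of 3.74 and 3.65. Calm3 was not above the floor on all 4 arrays. The calcium buffers Calb2 and Pvalb were at least 13.8-fold and 4.67-fold higher, and Ppp3ca, the catalytic subunit of calcineurin, at least 9.98-fold. Camk2a, the calcium and calmodulin kinase of excitatory synapses, and Shank1, a postsynaptic scaffold, were below the floor on all 4 arrays.

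Of 21 measured genes of transmitter identity and receptors 8 were called higher and 0 lower, with a median of 2.45 that became 0 with values under the floor set to it. Gria2 and Grin1, subunits of AMPA and NMDA glutamate receptors, were at least 3.47-fold and 2.7-fold higher, and Gabbr1, of the GABA-B receptor, at least 7.51-fold. Gad1 and Gad2, which make GABA, were at least 1.74-fold and 1.13-fold higher. With the mean of all rows Gria2, Grin1, Gad1 and Gad2 each lost the call, at 3.06, 1.89, 1.57 and 2.21 on the log2 scale. Slc17a7, which loads glutamate into vesicles, read 15853 and 902 on the miR-7 deficient and wild type arrays labelled activated, against 297 and 99.9 on the naive arrays. The naive arrays were below the floor and the wild type array labelled activated stood just above its own. It kept its call in 2 of the 4 fits that each left out 1 array.

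Peptide hormones and the granins packed with them followed. Of 18 granins and neuropeptides 11 were called higher and 0 lower (median 3.42, and 0.56 with values under the floor set to it). Chgb, the granin whose promoter is shown above, read 11236 and 9149.5 on the miR-7 deficient and wild type arrays labelled activated and 72.9 and 319 on the naive arrays (at least 10.2-fold, adjusted p = 7.1e-05). Sst, the inhibitory peptide somatostatin, read 2861 and 5153 on the arrays labelled activated and 171 and 466 on the naive arrays (at least 3.85-fold, adjusted p = 0.000752). Penk, the enkephalin precursor, was at least 5.89-fold higher and Cpe, which trims peptide precursors, at least 13.1-fold. Npy, neuropeptide Y, was above the floor on all 4 arrays and was not called, at 1753 and 1579 on the arrays labelled activated and 1130.3 and 2093 on the naive arrays.

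Myelin genes were among the highest. Of 21 oligodendrocyte and myelin genes 14 were called higher and 0 lower (median 3.50, and 0.61 with values under the floor set to it). Mobp, a basic protein of compact myelin, read 13982 and 16745 on the miR-7 deficient and wild type arrays labelled activated, against 86.5 and 103 on the naive arrays (at least 15.3-fold, adjusted p = 6.6e-06). Mbp, the major basic protein of myelin, read 17055 and 23744 on the arrays labelled activated and 241 and 370.4 on the naive arrays (at least 20.2-fold). For both genes each array labelled activated lay above each naive array. Apod, a lipid carrier, was at least 8.5-fold higher and Trf, transferrin, at least 6.11-fold. Mag and Olig1, a myelin adhesion protein and an oligodendrocyte transcription factor, were at least 1.69-fold and 1.52-fold higher. Sox10, another such factor, was above the floor on both arrays labelled activated at 1623 and 1400.4 and was not called (1.16, adjusted p = 0.0838), but was on centring each array on its median. Summed intensity over the list was 75933 and 94154 on the arrays labelled activated and 6184 and 6276 on the naive arrays.

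Astrocyte genes were higher for 14 of 20 measured members and lower for 0 (median 3.79, and 1.62 with values under the floor set to it). Apoe, the lipid carrier of astrocytes and macrophages, read 12908 and 19971 on the miR-7 deficient and wild type arrays labelled activated and 765 and 379 on the naive arrays (at least 16.1-fold, adjusted p = 6.4e-05). The glutamate transporters Slc1a2 and Slc1a3 were at least 2.62-fold and 5.17-fold higher, Sparcl1, a synapse-organizing matrix protein, at least 8.93-fold, and Ndrg2 at least 14.1-fold. Gfap, the filament of astrocytes, read 996 and 826 on the arrays labelled activated and 26.6 and 43.2 on the naive arrays and lost its call with the mean of all rows. Members not called included defining ones. Aqp4, the water channel of astrocyte endfeet, read 1316 and 1365 on the arrays labelled activated and 2665 and 3458 on the naive arrays (-1.18 ± 0.42, SE, adjusted p = 0.083), with 1 of its 4 rows in the direction of the row used and 1.08 as the difference with the mean of all rows. Gja1, a gap junction protein (-0.62, adjusted p = 0.345, and 0.29 with the mean of all rows), and Glul, glutamine synthetase (-0.32, adjusted p = 0.637), were also above the floor on all 4 arrays and not called.

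Lists of other cell types found in brain held fewer called genes. Of 18 microglia and complement genes 4 were called higher: Cst3 (cystatin C), Sparc, C1qa and C1qb. The defining markers P2ry12, Tmem119 and Cx3cr1 were below the floor on all 4 arrays. Of 15 choroid plexus and meningeal genes Ttr, the thyroid hormone carrier, and Ptgds, the prostaglandin D synthase of meninges, were called higher, at least 7.48-fold and 9.42-fold. Of 16 endothelial and pericyte genes 1 was called higher (Vtn) and 1 lower (Ly6e, a call kept in 0 of the 4 fits without 1 array and lost on centring). Genes typical of liver, muscle, pancreas, lung, skin or testis gave 0 calls of 22, with a median of -0.21, close to that of all genes. Only 1 was above the floor on both arrays labelled activated and 0 on both naive arrays, so at most 1 could be called. Over all genes 6.71% were called.

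**Figure D2:**
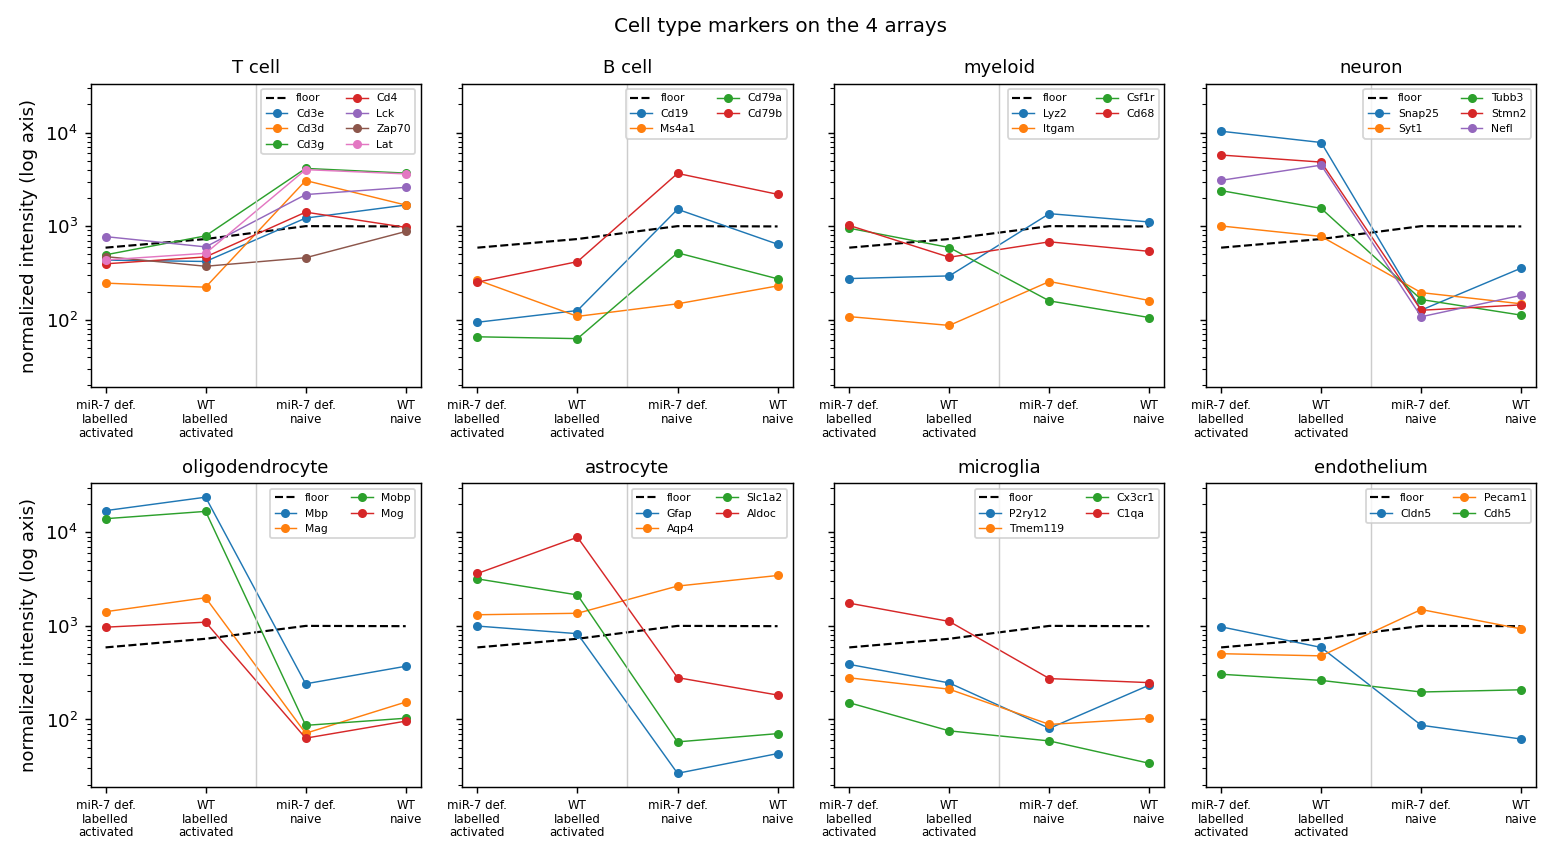
Normalized intensity (log axis) of cell type markers on the 4 arrays, with arrays labelled activated to the left of the grey line and naive arrays to the right; lines join the values of a gene and the dashed line is each array's floor. Neuronal and myelin markers lie above the floor on the arrays labelled activated and below it on the naive arrays, where Cd3d, Cd3g and Lat lie above it.

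Genes of the T cell receptor were called mostly in the opposite direction. Of 29 measured members 11 were called lower and 1 higher, with a median of -1.63 that became 0 with values under the floor set to it. Cd3d, a CD3 chain, read 246 and 223 on the miR-7 deficient and wild type arrays labelled activated, against 3072 and 1681 on the naive arrays, at least 3.47-fold lower (adjusted p = 0.000577). Lat read 435 and 513 on the arrays labelled activated and 4018 and 3617 on the naive arrays, at least 5.82-fold lower (adjusted p = 0.000594). Both genes were below the floor on the arrays labelled activated and above it on the naive arrays, with no overlap. Cd3g, a further chain, had a log2 difference of -2.65 ± 0.43 (SE), Fyb, an adaptor of T cell adhesion, -2.44 ± 0.41, and Cd2, an adhesion receptor, -2.87 ± 0.57. Of the list only Fyn was above the floor on all 4 arrays, so these differences depend on values under it. Cd28, the costimulatory receptor that the stimulating antibody binds, was at least 2.21-fold lower and Ptprc, the phosphatase CD45, at least 3.52-fold. With the mean of all rows Cd28, Ptprc and Fyb lost their calls. Cd3e (434 and 419 on the arrays labelled activated and 1219.8 and 1680.5 on the naive arrays) and Lck were called lower and kept the call in 1 of the 4 fits that each left out 1 array. Cd4, the antigen by which the cells were selected, read 396 and 469 on the arrays labelled activated and 1412 and 971 on the naive arrays (-1.44, adjusted p = 0.0437). It met the limits on p and fold but was not called, since its wild type naive value lay under that array's floor of 994.

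The list also held members known from neurons as well. Thy1, a surface glycoprotein abundant on mouse T cells and neurons, read 17567 and 8439 on the miR-7 deficient and wild type arrays labelled activated, against 742 and 1889 on the naive arrays (3.36 ± 0.54, SE, adjusted p = 0.00161). Fyn, a kinase of T cells and brain, read 4664 and 4807 on the arrays labelled activated and 4503 and 3816 on the naive arrays, a difference of 0.19 within the spread between genotypes. Without the miR-7 deficient naive array 6 members were called lower, and between 8 and 9 without any other array.

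Homing and quiescence genes of naive T cells were called lower for 11 of 22 and higher for 0 (median -1.92). Ccr7, the chemokine receptor for entry into lymph nodes, read 177 and 206 on the miR-7 deficient and wild type arrays labelled activated, against 1114 and 1438 on the naive arrays, at least 1.93-fold lower (adjusted p = 0.00124). S1pr1, the receptor for exit, had a difference of -1.67 ± 0.43 (SE) and kept its call in 1 of the 4 fits without 1 array. Satb1, a chromatin organizer of thymocytes and naive T cells, differed by -2.70 ± 0.45 and Lef1, a transcription factor of naive cells, was at least 2.61-fold lower. Satb1 was not above the floor on all 4 arrays. Gimap6, a GTPase of lymphocytes, was at least 7.45-fold lower. Tcf7, the partner of Lef1, read 3643 and 1039 on the arrays labelled activated and 5097 and 6257 on the naive arrays and was not called (-1.54, adjusted p = 0.0895), but was with the genotype as a replicate block and with the mean of all rows (-1.90), with which Lef1 lost its call. Without the miR-7 deficient naive array 4 members were called lower, without the wild type naive array 6, and without the miR-7 deficient array labelled activated 7.

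Some cytokine receptor chains and regulators of the lymphocyte cell skeleton were called lower. Il2rg, the chain shared by several interleukin receptors, was above the floor everywhere and read 828 and 1094 on the miR-7 deficient and wild type arrays labelled activated, against 7047 and 6787 on the naive arrays (-2.86 ± 0.42, SE, adjusted p = 0.000878). The kinases Jak1 and Jak3 were called lower, as was Il9r, 4 of 14 members in all (median -1.66). Fewer were called in each fit without 1 array. Jak3 and Il9r lost their calls with the mean of all rows, and Il9r on centring. Of 29 regulators of lymphocyte actin and migration 14 were called lower and 0 higher (median -1.63, and 0 with values under the floor set to it), and 9 were without the miR-7 deficient naive array. Cxcr4, a chemokine receptor, read 444 and 660.4 on the arrays labelled activated and 7578 and 5411 on the naive arrays, at least 9.77-fold lower. Rac2, the Rac GTPase of blood cells, was at least 3.78-fold lower, Itgb7, an integrin chain of gut homing, at least 3.89-fold, and Lcp1, an actin-bundling protein of leukocytes, differed by -2.41 ± 0.41.

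Antigen presentation was lower in both classes. H2-D1, a class I heavy chain, read 3579 and 5217 on the miR-7 deficient and wild type arrays labelled activated, against 27360.5 and 32324 on the naive arrays (-2.78 ± 0.43, SE, adjusted p = 0.00124), and B2m, the light chain, 8644 and 10126 on the arrays labelled activated and 32308 and 27047 on the naive arrays (-1.66 ± 0.42, adjusted p = 0.0203). Tap1, the peptide transporter, was at least 4.82-fold lower, a call lost with the mean of all rows. Of 13 class I genes 5 were called lower and 0 higher (median -1.66), and 3 were without one or the other miR-7 deficient array, while the chaperone Calr, also of that list, read 6698 and 6695 on the arrays labelled activated and 6535 and 7285 on the naive arrays. B2m kept its call in 0 of the 4 fits that each left out 1 array. Related H2 genes are alike in sequence, and whether probes tell them apart was not tested.

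Class II genes, which mouse T cells are not known to express, were called lower for 5 of 10 (median -1.99). H2-Aa read 386 and 687 on the miR-7 deficient and wild type arrays labelled activated, against 9870.0 and 4186 on the naive arrays, at least 9.81-fold lower, and the invariant chain Cd74 had a difference of -3.61 ± 0.44 (SE). Cd74 was not above the floor on all 4 arrays, so its difference depends on a value under it. Beside them, B cell markers were called lower for 3 of 17 (Cd79b, Ighm and Cd37), for 1 without one or the other miR-7 deficient array, and summed to 4549 and 5772 on the arrays labelled activated and 22710.2 and 15831 on the naive arrays. Of the defining B cell markers, Ms4a1 and Cd79a were below the floor on all 4 arrays. Myeloid markers summed to 6158 and 4030.2 on the arrays labelled activated and 7036 and 6143 on the naive arrays, with 1 of 17 called lower (Lyz2). The part of these cells in the lower genes was not tested. Interferon-stimulated genes gave 3 calls of 30, all lower, with Gbp2 and Rtp4 among them, and 0 without the miR-7 deficient naive array. Their median difference was -2.32 in miR-7 deficient mice and -0.64 in wild type mice.

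Genes that activation is known to induce gave few calls. Of 17 effector cytokine and granule genes, 19 activation-induced transcription factors and 25 cell cycle genes, 0 were called in either direction (limma). Over all genes 6.71% were called, but a call needs both arrays of the higher state above the floor. No effector gene was above it on any array. On both arrays labelled activated 2 transcription factors and 3 cell cycle genes were above it, and on both naive arrays 0 and 3. Most members thus could not be called. Medians of these lists were -0.71, -0.63 and -0.75. Il2ra read 39.2 and 108 on the miR-7 deficient and wild type arrays labelled activated, against 59.9 and 75.3 on the naive arrays, below every floor. Myc read 433 and 510.4 on the arrays labelled activated and 2302 and 962 on the naive arrays (-1.66, adjusted p = 0.0415). Its wild type naive value lay under that array's floor of 994, so it could not be called. Pcna, the replication clamp, read 1292 and 1045 on the arrays labelled activated and 2905 and 1898 on the naive arrays (-1.01, adjusted p = 0.143). Of 15 activation markers, Cd200, which neurons express too, was called higher (at least 3.71-fold) and Tnfrsf18, the receptor GITR, lower (at least 3.49-fold). Ctla4, the inhibitory receptor, was above the floor on all 4 arrays and was not called (-0.93, adjusted p = 0.156). A value below the floor bounds a transcript and does not show it absent, and a gene that was not called is not shown to be equal.

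Within glycolysis the calls differed between forms of an enzyme. Of 21 members 6 were called higher and 1 lower (median 0.93). Ldhb, the lactate dehydrogenase subunit of heart and brain, read 5262 and 6619 on the miR-7 deficient and wild type arrays labelled activated, against 148 and 117 on the naive arrays (at least 5.92-fold higher, adjusted p = 1.7e-05). Ldha, the subunit of muscle and activated lymphocytes, read 2061 and 2449 on the arrays labelled activated and 7532 and 5306 on the naive arrays (-1.49 ± 0.43, SE, adjusted p = 0.0371), and kept its call in 0 of the 4 fits without 1 array and lost it on centring. Eno2, the neuronal enolase, was at least 9.67-fold higher, while Eno1, the common form, differed by -0.20 ± 0.42. Aldoc, the aldolase of brain, was at least 5.69-fold higher, while Aldoa differed by 0.30 ± 0.42. Hk1 and Pfkm, a hexokinase and a phosphofructokinase, were at least 3.32-fold and 3.01-fold higher, a call Hk1 lost with the mean of all rows, and Hk2, the hexokinase that activated T cells induce, was below the floor on all 4 arrays. Differences between the forms themselves were not tested.

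Most ion pump subunits on the array were called higher. Of 23 subunits of the sodium pump and the vesicular proton pump 15 were called higher and 1 lower (median 2.15). Of the beta chains of the sodium pump, Atp1b1 and Atp1b2 were at least 9.1-fold and 7.23-fold higher, and Atp1b3, the chain of lymphocytes among other cells, read 6426 and 4734 on the miR-7 deficient and wild type arrays labelled activated, against 16444 and 16494 on the naive arrays (-1.58 ± 0.42, SE, adjusted p = 0.027). Its call was kept in 0 of the 4 fits without 1 array. Atp6v1g2, a proton pump subunit of neurons, was at least 8.04-fold higher, and Atp6v0c, the ring of the pump, differed by 2.73 ± 0.42.

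**Figure D3:**
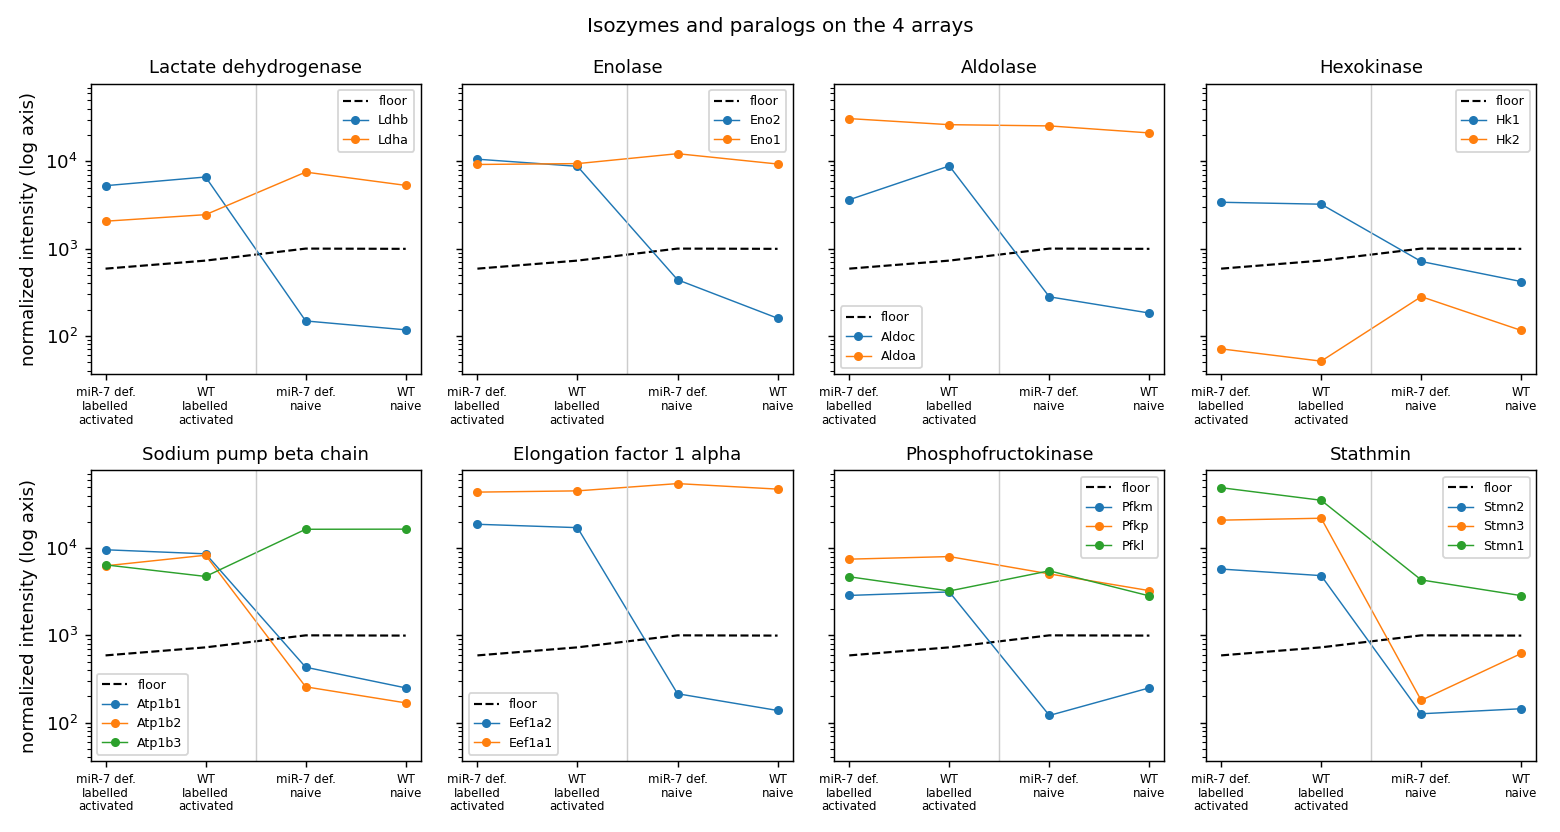
Normalized intensity (log axis) of related enzymes, pump subunits and other protein families on the 4 arrays, with arrays labelled activated left of the grey line and naive arrays right of it; lines join the values of a gene and the dashed line is each array's floor. Ldhb, Eno2, Aldoc, Hk1, Pfkm, Atp1b1, Eef1a2 and Stmn2 are above the floor on the arrays labelled activated and below it on the naive arrays, whereas Ldha and Atp1b3 are lower on the arrays labelled activated; levels of different genes are not comparable.

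Of 80 subunits of oxidative phosphorylation 50 were called higher and 0 lower (median 1.69), and 74 were positive in both genotypes. Cox6b1, of cytochrome oxidase, read 7932 and 8125 on the miR-7 deficient and wild type arrays labelled activated, against 769 and 453 on the naive arrays (at least 8.05-fold, adjusted p = 0.000193). Cox5b, of the same complex, read 19471 and 21343 on the arrays labelled activated and 3923 and 2225 on the naive arrays (2.79 ± 0.44, SE), above the floor on all 4. Ndufa12, of complex I, differed by 2.83 ± 0.45 and Atp5b, of ATP synthase, by 1.48 ± 0.42, a call kept in 0 of the 4 fits without 1 array. The count was 18 without the wild type naive array and 32 to 34 without any other. Cytosolic ribosomal protein genes leaned the other way, with 7 of 78 called lower and 0 higher (median -0.60). Rpl5 read 1537 and 2008 on the arrays labelled activated and 11094 and 7337 on the naive arrays (-2.36 ± 0.43, adjusted p = 0.00362). Between 1 and 4 were called when an array was left out. Ribosomal protein genes have near-identical pseudogene copies, so their values are uncertain. Of 37 proteasome subunits 4 were called higher and 1 lower, the interferon-inducible Psmb8, which was not called without one or the other miR-7 deficient array, and 0 were called higher without the wild type naive array and 2 without the wild type array labelled activated or the miR-7 deficient naive array.

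Genes known from neurodegeneration and autophagy were high too. Of 20 such genes 12 were called higher and 0 lower (median 1.86). App, the amyloid precursor, read 22098 and 21470.4 on the miR-7 deficient and wild type arrays labelled activated and 654 and 463 on the naive arrays, at least 21.8-fold higher. Prnp, the prion protein, was at least 7.38-fold higher. Gabarapl1, an ATG8 protein of autophagosomes, had a fitted difference of 4.99 ± 0.43 (SE). It was not above the floor on all 4 arrays, so this depends on a value under it. Its relative Gabarap differed by 0.39 and was not called. Fth1, the ferritin heavy chain, read 42284 and 44844 on the arrays labelled activated and 14497 and 13122 on the naive arrays (1.66 ± 0.41, adjusted p = 0.0192), with the call kept in 0 of the 4 fits without 1 array, while the light chain Ftl1 differed by 0.03.

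**Figure D4:**
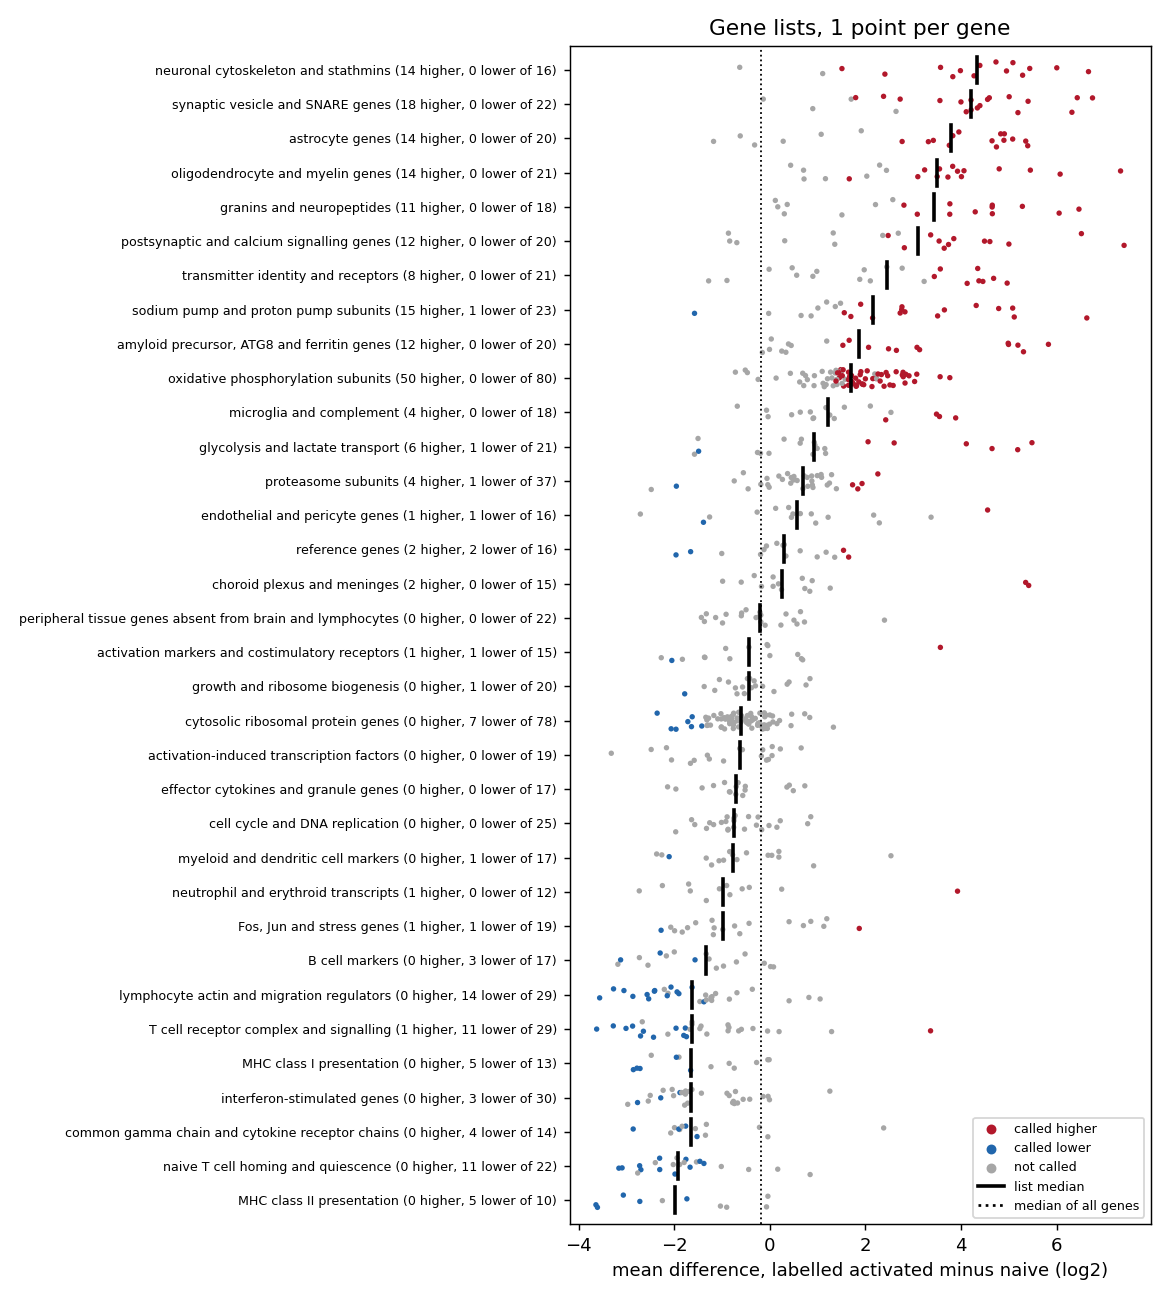
Mean difference (log2, labelled activated minus naive) of each measured gene of 34 lists, ordered by list median (black bar), with the median of all genes as a dotted line. Lists of neuronal, oligodendrocyte and astrocyte genes lie at the top with medians up to 4.33. At the bottom, with medians down to -1.99, lie class II, homing, cytokine receptor, interferon, class I and T cell receptor genes. The T cell receptor median became 0 with values under the floor set to it.

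Without regard to lists, the 10 genes called highest among those above the floor on all 4 arrays were Tubb4a, Cst3, Calm2, Norad, Tspan7, Stmn1, Sparc, Tecr, Selenow and Ndufa12, with differences between 2.83 and 4.27. Cst3, a secreted protease inhibitor, read 38686 and 28699 on the miR-7 deficient and wild type arrays labelled activated, against 2628 and 1926 on the naive arrays. Norad, a long noncoding RNA that binds Pumilio proteins, read 18669 and 17113 on the arrays labelled activated and 1661 and 1195 on the naive arrays. The 10 largest bounds were those of Rtn1 (at least 25.9-fold), Dnm1, App, Stmn3, Gpm6b, Mbp, Sncb, Nrgn, Eef1a2 and Spock2 (at least 17.6-fold). Eef1a2, the elongation factor form of neurons and muscle, read 18757 and 17167 on the arrays labelled activated and 214 and 138 on the naive arrays. Its common relative Eef1a1 read 43836 and 45306 on the arrays labelled activated and 54887 and 47467 on the naive arrays (-0.20 ± 0.41, SE). All 20 kept their call in each of the 4 fits without 1 array, and Gpm6b lost it with the mean of all rows.

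The 10 called lowest on all 4 arrays were Gdpd3, Gramd3, Klhl6, Il2rg, H2-D1, H2-K1, Cap1, Lcp1, Rpl5 and Vim, between -3.42 and -2.33. Gdpd3, a lysophospholipase D, read 999 and 1632 on the miR-7 deficient and wild type arrays labelled activated, against 15990.3 and 11696 on the naive arrays. Vim, the intermediate filament vimentin, read 1336 and 1600.5 on the arrays labelled activated and 6328 and 8488 on the naive arrays. The largest bounds were those of H2-Aa (at least 9.81-fold lower), Cxcr4, Gimap6, Acp5, Clic1, Samhd1, Ccl5, Ltb, Ammecr1l and Lat. Ccl5, a chemokine of T cells and natural killer cells, was at least 6.35-fold lower and Ltb, the lymphotoxin beta chain, at least 6.24-fold. Only 2 of the 5 rows of Ammecr1l shared its direction, and Gramd3, Samhd1 and Ammecr1l lost their calls with the mean of all rows.

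The genotypes differed most for a few genes above the floor on all 4 arrays, given as values without a test. Ddn, dendrin of dendrites and kidney, differed by 2.86 in miR-7 deficient mice and 0.58 in wild type mice, and was called with the genotype as a replicate block alone. Tcf7 differed by -0.48 in miR-7 deficient mice and -2.59 in wild type mice. In the other direction, Igk, an immunoglobulin light chain, differed by -3.31 and Ighm, the heavy chain of immunoglobulin M, by -3.28 in miR-7 deficient mice, against -1.19 and -1.31 in wild type mice. Prdx5, a peroxiredoxin, differed by 0.11 in miR-7 deficient mice and 2.19 in wild type mice, and Odc1, which makes polyamines, by -2.18 and -0.13 in miR-7 deficient and wild type mice. Of 2052 genes above the floor on all 4 arrays, 436 had opposite signs in the genotypes.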

How the data were processed

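RNA of 4 samples was hybridised to single-colour arrays labelled with Cy3, 1 array per sample. Per the submitters' processing notes, the authors used RMA for normalization, with no version stated. Normalized intensities were deposited on a linear scale between 21.7 and 64873, although a header calls such values log2. Comparison tables deposited by the authors also hold a fold change, the brighter array over the dimmer one. All 283288 intensities and 141644 ratios there matched the value table (relative tolerance 1e-06), so only the value table was used. Raw scans were not used here.

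Gene names of 33663 of 35411 rows came from the files, 31529 matched by gene number to a RefSeq table (GRCm38.p6), which updated 4510 symbols, and 1748 rows had none. Of 20735 genes 7950 had several rows, and the row with the highest mean was kept. Intensities were taken to log2 and fitted with limma 3.58.1 in R 4.3.3 (lmFit and eBayes, state as the only term, 2 residual degrees of freedom, prior degrees of freedom 9.83), with Benjamini-Hochberg adjustment over all genes. Standard errors are those of the fit. Tables and figures were made with Python 3.11.15, numpy 2.4.6, pandas 2.3.3 and matplotlib 3.10.9.

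Genes named are the 10 highest and 10 lowest called genes above the floor on all 4 arrays, the 10 largest bounds each way, the 5 largest gaps between genotypes each way, and members of 34 gene lists, which held 771 measured genes. Unnamed, RIKEN and predicted genes, pseudogenes, receptor segments and background receptors were left out, and a few list members are not reported here by name. Members and lists were chosen with earlier results of these data known. The fit with its limits on p and fold, but without the floor, was run on simulated data with known changes. The calls as used here, which need the floor, were not tested in this way. Alternatives were the genotype as a block, other floors and filters, other scalings or row summaries, an intensity trend and leaving out each array.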

Additional observations from a re-analysis of the deposited data

Results flagged for a closer look

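For 15 named genes above the floor on all 4 arrays, labelled activated minus naive came to at least 0.25 on the log2 scale with opposite signs in the 2 genotypes. With 1 array per group the difference between genotypes was not tested. Values below are the gap on the log2 scale, miR-7 deficient minus wild type.

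Outside the translation machinery there were 6. Nvl, a ribosome assembly ATPase, had a gap of 1.99 (1.27 in miR-7 deficient mice and -0.72 in wild type mice). Tef, a circadian transcription factor, had a gap of 1.85 (0.39 in miR-7 deficient mice and -1.47 in wild type mice), with 2 of its 4 rows sharing a direction. Myh7b, a myosin heavy chain, had a gap of 1.80 (0.61 in miR-7 deficient mice and -1.20 in wild type mice). Fnta, the farnesyltransferase alpha subunit, had a gap of -2.03 (-0.38 in miR-7 deficient mice and 1.65 in wild type mice). Slc2a1, the glucose transporter, had a gap of -1.79 (-1.15 in miR-7 deficient mice and 0.63 in wild type mice), and Npy one of 1.04 (0.63 in miR-7 deficient mice and -0.41 in wild type mice).

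Genes of the translation machinery made up the other 9. Ribosomal protein genes had the most members that could be flagged, with 74 of 78 above the floor on all 4 arrays. The next list, oxidative phosphorylation, had 21 of 80. Of all 2052 genes above the floor on all 4 arrays, 436 had opposite signs of any size. The count of 9 is therefore no result about translation genes. Eef2, elongation factor 2, had a gap of -1.04 (-0.59 in miR-7 deficient mice and 0.45 in wild type mice). Gaps were -0.96 for Rpl26, -0.63 for Rpl31, -1.18 for Rpl36a, -0.80 for Rpl38, -0.73 for Rpl41, -0.997 for Rps25, and -0.87 for Rps6, all lower in miR-7 deficient and higher in wild type mice. Rpl22 went the opposite way, with a gap of 0.97 (0.37 in miR-7 deficient mice and -0.60 in wild type mice). The median difference of all 78 ribosomal protein genes was -0.89 in miR-7 deficient mice and -0.29 in wild type mice.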

How the results depend on the processing

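Leaving out 1 array in turn gave 717 to 888 genes higher and 94 to 197 lower on the arrays labelled activated, where the lone array of a state is assumed to vary like the others. With the genotype as a replicate block, which pairs arrays by genotype and leaves 1 residual degree of freedom, 1200 genes were higher and 333 lower, and no called gene of the lists lost its call. A floor at the 99th percentile gave 642 higher and 120 lower, and no floor gave 1940 and 934. Filtering dim genes before the fit gave 585 lower and an intensity trend 534. No other setting moved either count by over 1.5 times: centring gave 1244 and 222, quantile normalization 983 and 362, a lowess trend removed 1160 and 246, and the mean of all rows 844 and 241. Genes 2-fold apart the same way in both genotypes, 745 in the main setting, numbered 3558 with no floor and 315 with the 99th percentile floor. Those in opposite directions numbered 189 with no floor and 0 with the 99th percentile floor. Of the named genes, 7 lost a call and 14 gained one on centring, 43 lost and 14 gained one with the mean of all rows, and 15 gained one under the block. No called gene among them turned direction, while 43 that were not called changed sign on centring and 26 with the mean of all rows. The planned list medians without a floor are those of the main setting. Setting values under the floor to it, added after seeing the data, moved 29 of 34 list medians by 0.3 or more on the log2 scale, for example to 0.61 for oligodendrocyte genes, with a main value of 3.50, and put 16 of them at 0, those of T cell receptor, transmitter and lymphocyte actin genes included. Signal over background limits all genes below the floor. The cause of these shifts was not tested.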

Other observations

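Among genes often used as references, 2 of 16 measured were called higher (Hprt and Ywhaz) and 2 lower (B2m and Rplp0), with a median of 0.29, and 0 or 1 each way when 1 array was left out. Ppia, cyclophilin A, read 22512 and 24254 on the miR-7 deficient and wild type arrays labelled activated and 20988 and 16350.0 on the naive arrays and was not called. Genes of growth and ribosome assembly, which activated T cells are known to raise, gave 1 call of 20, Nop2, which was lower (at least 1.9-fold, kept in 1 of the 4 fits without 1 array and lost with the mean of all rows), with a list median of -0.45. Over all genes 6.71% were called. Npm1, the nucleolar chaperone, read 3534 and 3436 on the arrays labelled activated and 6051 and 4215 on the naive arrays.

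Stress and immediate early genes gave 2 calls of 19, where 6.71% of all genes were called. Hsp90aa1, a heat shock chaperone, differed by 1.87 ± 0.42 (log2, SE) and kept its call in 1 of the 4 fits without 1 array, and Zfp36, which destabilises cytokine messengers, was at least 2.08-fold lower. Of 12 neutrophil and erythroid genes Car2, a carbonic anhydrase that oligodendrocytes also express, was called higher (at least 2.37-fold). Hba-a1, an alpha globin, read 345 and 1356 on the arrays labelled activated and 1844 and 2556 on the naive arrays and was not called (-1.67, adjusted p = 0.0809), but was with the genotype as a replicate block.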
